A study of Mus musculus with 9 samples.

Results

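The 10 genes described here belong to the antioxidant programme of the transcription factor NRF2 or encode carbonyl reductases. They were chosen by name, with earlier results of these data known: Nfe2l2, Nqo1, Hmox1, Gclc, Gclm, Slc7a11, Txnrd1, Srxn1, Cbr1 and Cbr3. They are 10 of the 55401 genes counted, and 10 of 10 passed the filter on low counts that left 15659 genes for testing. Messenger RNA was sequenced from NP53, a mouse cell line of diffuse midline glioma, a childhood tumour of the brainstem and neighbouring midline structures. The group Gcontrol has the labelled genotype WT. The groups G1C7 and G2C9 are derivatives of NP53 labelled as TIM-3 knockouts, and no treatment or other altered allele is labelled. The gene of TIM-3 is Havcr2, and the protein is mostly studied as a brake on T cell activity. Each group had 3 libraries, and cells of every group were grown in medium with fetal bovine serum. The labels do not say how the knockouts were made, whether each derivative grew from 1 cell, or whether libraries came from separate cultures. The p-values therefore measure only the spread between these libraries, which may be technical, and each derivative stands for itself.

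NRF2, the product of Nfe2l2, is bound by KEAP1 and degraded in unstressed cells. Oxidants and electrophiles modify KEAP1, and NRF2 then enters the nucleus, pairs with small MAF proteins and activates genes through antioxidant response elements. Its targets make glutathione, keep thioredoxin and peroxiredoxins in working state, and reduce quinones and carbonyls. Much of the control of NRF2 acts on its protein, which mRNA counts do not measure.

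Promoter sequence is shown for the 3 genes whose level passed a test below, Gclm, Cbr1 and Cbr3, and for Srxn1, the member with the most matches to the looser of 2 searched element cores. The sequences are RefSeq's, build GRCm38.p6, written 5′ to 3′ on the strand of the gene. They end at the annotated start or at the first exon base in the deposited annotation, whichever came first. The strict core of the antioxidant response element, TGACNNNGC, and the looser TGANNNNGC, which contains it, were searched on both strands in the 250 bases before each start, and capitals mark matches to the looser one.
Gclm, chr3:122245307-122245556, plus strand, 250 bases: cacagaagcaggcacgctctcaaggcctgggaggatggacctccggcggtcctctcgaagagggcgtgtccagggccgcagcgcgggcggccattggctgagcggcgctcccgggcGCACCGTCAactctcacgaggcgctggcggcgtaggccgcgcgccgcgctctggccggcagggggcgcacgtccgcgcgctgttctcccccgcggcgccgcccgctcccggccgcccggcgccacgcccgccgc
Cbr1, chr16:93607587-93607836, plus strand, 250 bases: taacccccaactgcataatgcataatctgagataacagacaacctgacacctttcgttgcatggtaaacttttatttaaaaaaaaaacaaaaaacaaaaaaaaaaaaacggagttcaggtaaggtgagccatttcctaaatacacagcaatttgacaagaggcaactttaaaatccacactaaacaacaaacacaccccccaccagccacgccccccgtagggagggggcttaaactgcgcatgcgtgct
Cbr3, chr16:93682969-93683214, plus strand, 246 bases: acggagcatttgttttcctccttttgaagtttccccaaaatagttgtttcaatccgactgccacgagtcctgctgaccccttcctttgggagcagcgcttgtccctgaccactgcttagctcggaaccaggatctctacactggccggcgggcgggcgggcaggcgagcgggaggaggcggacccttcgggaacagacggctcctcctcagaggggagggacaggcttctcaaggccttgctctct
Srxn1, chr2:152105274-152105515, plus strand, 242 bases: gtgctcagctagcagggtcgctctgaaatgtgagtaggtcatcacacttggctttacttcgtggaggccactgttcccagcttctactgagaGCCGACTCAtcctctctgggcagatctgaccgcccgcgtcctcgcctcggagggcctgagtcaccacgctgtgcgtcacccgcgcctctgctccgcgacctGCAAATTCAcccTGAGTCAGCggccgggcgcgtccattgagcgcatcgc
Gclm, in the first line, holds 1 match to the strict core, which begins 134 bases before the start and reads on the other strand. The windows of Cbr1 and Cbr3 hold neither form. Srxn1 holds 3 matches to the looser core, at 158, 57 and 45 bases before the start. The Cbr1 window lies between exons of the deposited gene model, which has further exons upstream. RefSeq's promoter table held 8 of the 10 members, without Hmox1 and Gclc. Of these 8, the strict core was found in 3 (Nfe2l2, Gclm and 1 of the 3 Txnrd1 promoters) and the looser one in 5, which adds Srxn1 and Slc7a11. Over the 32851 promoters of the table, 10.2% held the strict and 35.2% the looser core, so the looser match in particular is common. A match describes letters and is not a binding site.

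Each library held 50110129 to 56035382 reads in genes. Transcripts of the targeted gene were few in every group: Gcontrol gave 74, 58 and 60 Havcr2 reads, G1C7 gave 55, 6 and 66, and G2C9 gave 39, 30 and 28. No difference passed (edgeR adjusted p = 0.586 and 0.448 against Gcontrol). Such reads do not show whether protein is made. Of the 14 glioma and neural stem cell markers, Nes, Sox2, Pdgfra, Vim and Cd44 were read in every library (21.3 CPM or more, CPM being counts per 1e6 reads after scaling), whereas Olig1 and Olig2 had 0 reads in all 9 libraries and Sox10 had 4. The summed CPM of the glioma list was 2875 to 2911 in Gcontrol, 3317 to 3480 in G1C7 and 3223 to 3343 in G2C9. T and NK cell markers summed to at most 0.139 CPM, and the 10 microglia and macrophage markers to 17.8 to 99.7 CPM. Of these, Adgre1 and Tyrobp had 0 reads, while Tmem119 was read at 14.5 to 92.1 CPM and Cd68 at 2.1 to 4.5 CPM. Of the 7 fibroblast and pericyte markers, Col1a1 and Col1a2 were read at 1282 and 902 CPM or more in every library. Lum and Rgs5 of that list had 48 and 2 reads over all 9 libraries. Within their groups, 2 libraries were unlike the rest and are called the libraries that stand apart: replicate 2 of G1C7 and replicate 3 of G2C9. In them 3045 and 2022 genes were 2-fold or more from the mean of the other 2 libraries, against 1182 and 1223 for the other G1C7 libraries, 956 and 965 for those of G2C9, and 365 to 405 in Gcontrol. The labels give nothing that sets them apart, so results are given with and without them.

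With all 9 libraries, few of the 10 genes changed. In G1C7, Cbr3 rose and Gclm fell against Gcontrol (edgeR quasi-likelihood test, Benjamini-Hochberg adjusted p under 0.05). That is 2 of 10, or 1 in each direction, where 17.5% of all tested genes were called, 8.77% higher and 8.73% lower. In G2C9, Cbr3 fell and no other member passed, 1 of 10 where 13.5% of genes were called, 6.25% higher and 7.22% lower. Both counts are near their background shares. Between the derivatives, Cbr3 was higher and Cbr1 lower in G1C7 than in G2C9, 2 of 10 where 3.36% of genes were called, 1.71% higher and 1.65% lower. Because the members were chosen with earlier results of these data known, a count above the share is no test of the set. The comparisons with Gcontrol use the same control libraries. In such bulk samples, fewer cells of a kind and less RNA per cell cannot be told apart.

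The members' changes against Gcontrol were small. Their median log2 fold change was 0.08 in G1C7 and 0.16 in G2C9, with medians over all tested genes of 0.02 and 0.01. The median size of change, without its sign, was 0.29 and 0.21 over the members and 0.32 and 0.28 over all genes. Between the derivatives the order was the other way, with 0.24 over the members and 0.19 over all genes. The 3 libraries of a derivative did not overlap the 3 of Gcontrol for 5 members in G1C7 and 6 in G2C9, where 43% and 43.3% of all genes showed no overlap. Between the derivatives this held for 4 members, against 18.2% of genes.

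**Figure D1:**
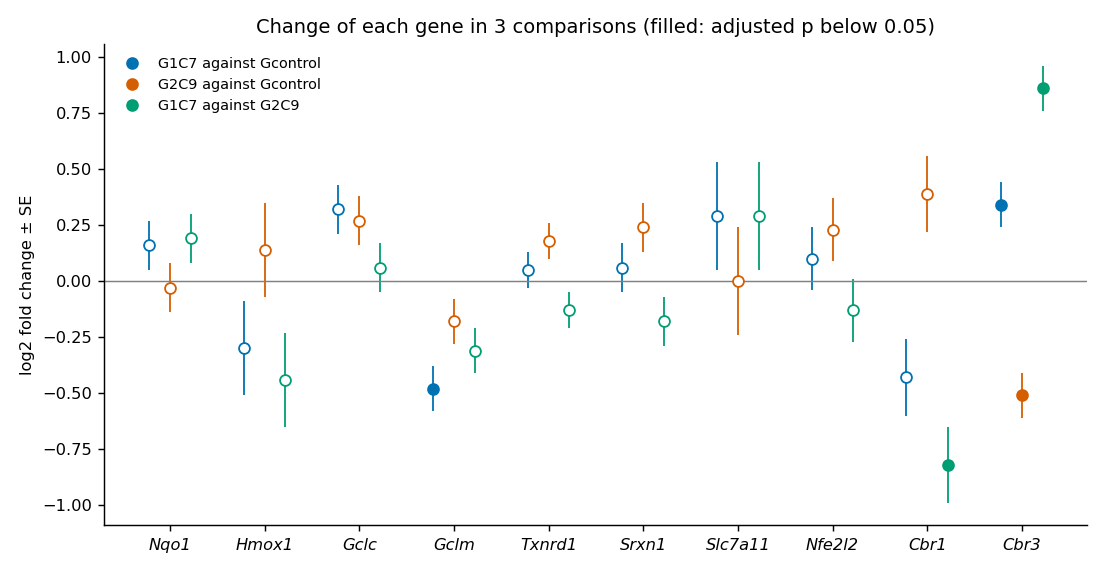
Log2 fold change (vertical axis, ± SE from the edgeR fit) of the 10 genes in 3 comparisons, with filled points where the adjusted p was below 0.05. Filled points are Gclm and Cbr3 in G1C7, Cbr3 in G2C9, and Cbr1 and Cbr3 between the derivatives, where Cbr1 lies at -0.82 and Cbr3 at 0.86.

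Leaving out both libraries that stand apart raised these counts, with the other libraries of each group close together. Then 7 members were called in G1C7 (4 higher, 3 lower), 9 in G2C9 (4 higher, 5 lower) and 8 between the derivatives (4 and 4). Calls over all genes rose as well, to 54.3%, 53% and 27.3% of 15808 genes, against which the members' counts are to be read. In that setting 2 libraries stand for each derivative.

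Nfe2l2 encodes NRF2 itself. Its level was 161, 165 and 157 CPM in Gcontrol, 158, 200 and 161 in G1C7 and 165, 173 and 229 in G2C9. The libraries that stand apart were the highest of each derivative, and the others lay within or just above the control range. The log2 fold change was 0.10 ± 0.14 (SE) in G1C7 (edgeR adjusted p = 0.667) and 0.23 ± 0.14 in G2C9 (adjusted p = 0.342). It was -0.01 and 0.07 without both libraries that stand apart (adjusted p = 0.863 and 0.174), and neither passed. Its 95% interval with all libraries ran from -0.22 to 0.43 in G1C7 and from -0.09 to 0.56 in G2C9. The gene (ENSMUSG00000015839.6) lies on chromosome 2 from 75675513 to 75704641 (GRCm38, as for all positions below, minus strand).

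Nqo1 encodes the quinone reductase that is the usual reporter of NRF2 activity. It stood at 131, 136 and 130 CPM in Gcontrol, 152, 132 and 160 in G1C7 and 119, 123 and 148 in G2C9. The groups overlapped in all 3 comparisons. The log2 fold change was 0.16 ± 0.11 in G1C7 and -0.03 ± 0.11 in G2C9 (edgeR adjusted p = 0.364 and 0.898). Leaving out both libraries that stand apart gave 0.24 and -0.13, which passed (adjusted p = 1.64e-04 and 0.0182). Nqo1 (ENSMUSG00000003849.8, chromosome 8, 107388225 to 107403206, minus strand) lies in a region whose genes were higher in both derivatives. The other 142 tested genes within 5 Mb had a median log2 fold change of 0.57 in G1C7 and 0.52 in G2C9, and 68 and 67 of them were called. Its nearest tested neighbours Nfat5 and Nob1 gave 0.57 and 0.37 in G1C7 and 0.75 and 0.43 in G2C9, of which Nfat5 in G2C9 passed (edgeR adjusted p = 0.0264). Nqo1 thus lay 0.41 and 0.55 below the median of its surroundings on the log2 scale.

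Hmox1 encodes heme oxygenase 1, which breaks down heme and is induced by NRF2 and by loss of its repressor BACH1. Its levels were 116, 119 and 119 CPM in Gcontrol, 82.2, 121 and 84.3 in G1C7 and 109, 110 and 172 in G2C9. Among the derivatives the libraries that stand apart were the highest, and the other 4 lay below all Gcontrol libraries. With all libraries the log2 fold change was -0.30 ± 0.21 in G1C7 and 0.14 ± 0.21 in G2C9 (edgeR adjusted p = 0.361 and 0.723). When both libraries that stand apart were left out, Hmox1 fell by 0.50 in G1C7 and by 0.11 in G2C9 (edgeR adjusted p = 2.22e-08 and 0.0402), so its direction in G2C9 turned. Hmox1 (ENSMUSG00000005413.8) lies on chromosome 8 from 75093621 to 75100589 (plus strand).

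Of the genes of glutathione synthesis Gclm fell in G1C7, while Gclc had higher values in both derivatives that did not pass. Gclc and Gclm encode the catalytic and the modifier subunit of glutamate-cysteine ligase, the rate-limiting enzyme of glutathione synthesis. Gclm (ENSMUSG00000028124.15, chromosome 3, 122245557 to 122270732, plus strand) stood at 151, 154 and 142 CPM in Gcontrol, 114, 91.8 and 115 in G1C7 and 131, 133 and 132 in G2C9. Every derivative library lay below every Gcontrol library, and those of G1C7 were lowest. It fell in G1C7 by 0.48 ± 0.10 on the log2 scale, or 1.4-fold (edgeR adjusted p = 0.0114). In G2C9 the value was -0.18 ± 0.10 (adjusted p = 0.287), and the difference between the derivatives was -0.31 ± 0.10 (adjusted p = 0.161). The call in G1C7 ended without Gcontrol replicate 1 or Gcontrol replicate 2 (adjusted p = 0.0607 and 0.0585). With both libraries that stand apart left out the change was -0.38 in G1C7 and -0.18 in G2C9, and both passed (adjusted p = 1.04e-06 and 0.00299).

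Gclc, in turn, stood at 83.8, 81.4 and 79.4 CPM in Gcontrol, 111, 84.5 and 111 in G1C7 and 98.3, 102 and 93.8 in G2C9. Every derivative library lay above every Gcontrol library, with G1C7 replicate 2 only just above. The log2 fold change was 0.32 ± 0.11 in G1C7 and 0.27 ± 0.11 in G2C9, and neither passed with all libraries (edgeR adjusted p = 0.0816 and 0.162). Leaving out G1C7 replicate 2 alone gave 0.45 and 0.27 (adjusted p = 0.00231 and 0.0135). Leaving out both libraries that stand apart gave 0.45 and 0.30 (adjusted p = 1.33e-07 and 1.93e-05). Gclc (ENSMUSG00000032350.9) lies on chromosome 9 from 77754535 to 77794485 (plus strand).

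The ratio of the subunits' mRNA, as CPM per kilobase of exon, was chosen after the values were seen and is a description. Gclc over Gclm was 0.927, 0.881 and 0.932 in Gcontrol, 1.64, 1.54 and 1.61 in G1C7 and 1.25, 1.28 and 1.19 in G2C9. The groups were separate, and both libraries that stand apart kept to the ratio of their group: the means were 0.913 ± 0.0283 (SD, n = 3), 1.59 ± 0.0514 and 1.24 ± 0.0493. In G1C7 replicate 2 both subunits were lower than in the other G1C7 libraries, at 0.761 and 0.804 of their mean.

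**Figure D2:**
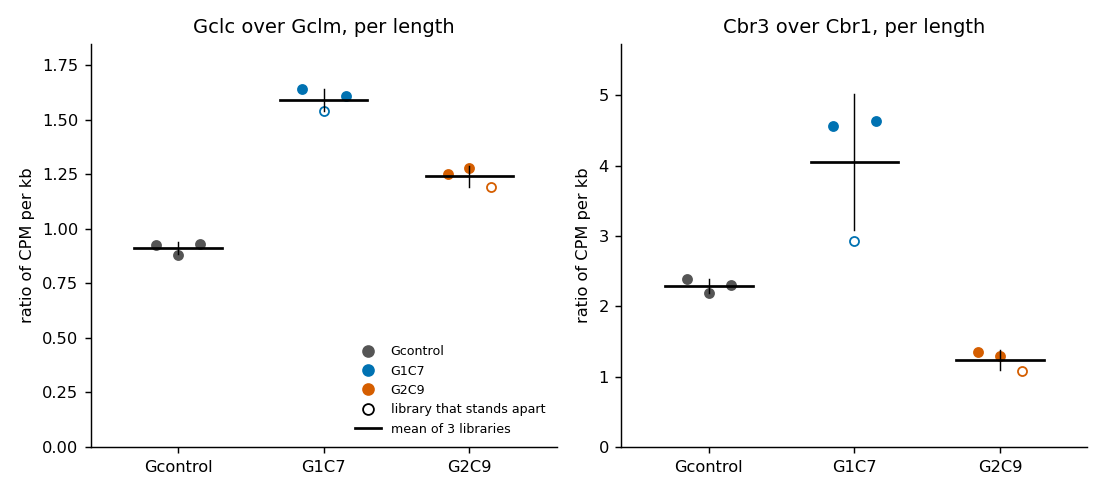
Ratio of CPM per kilobase of Gclc over Gclm (left) and of Cbr3 over Cbr1 (right) in each library, with the mean as a horizontal bar, the SD as a vertical line and open points for the libraries that stand apart. Gclc over Gclm averages 0.913 in Gcontrol, 1.24 in G2C9 and 1.59 in G1C7 with no overlap, while Cbr3 over Cbr1 is highest in G1C7 and lowest in G2C9.

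The fall of Gclm came with lower values of other genes around it. The other 41 tested genes within 5 Mb had a median log2 fold change of -0.37 in G1C7, -0.09 in G2C9 and -0.33 between the derivatives, close to Gclm's own -0.48, -0.18 and -0.31. Chromosome 3 as a whole (838 other tested genes) had medians of -0.33, -0.08 and -0.26. The neighbour Dnttip2 fell in G1C7 by 0.71 ± 0.19 (edgeR adjusted p = 0.0316), while Abca4, on the other side, was read at 0.432 CPM or less on average in every group. Of the 3 genes with the library profile nearest to that of Gclm, Ube2q1 and Mtx1 are on chromosome 3 too and Asb1 is on chromosome 1. That is not particular to Gclm: Abcd3 and Rhoc, the nearest profiles to Cbr1 of chromosome 16, are on chromosome 3 as well. The part of the chromosome's shift in the fall of Gclm was not tested.

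**Figure D3:**
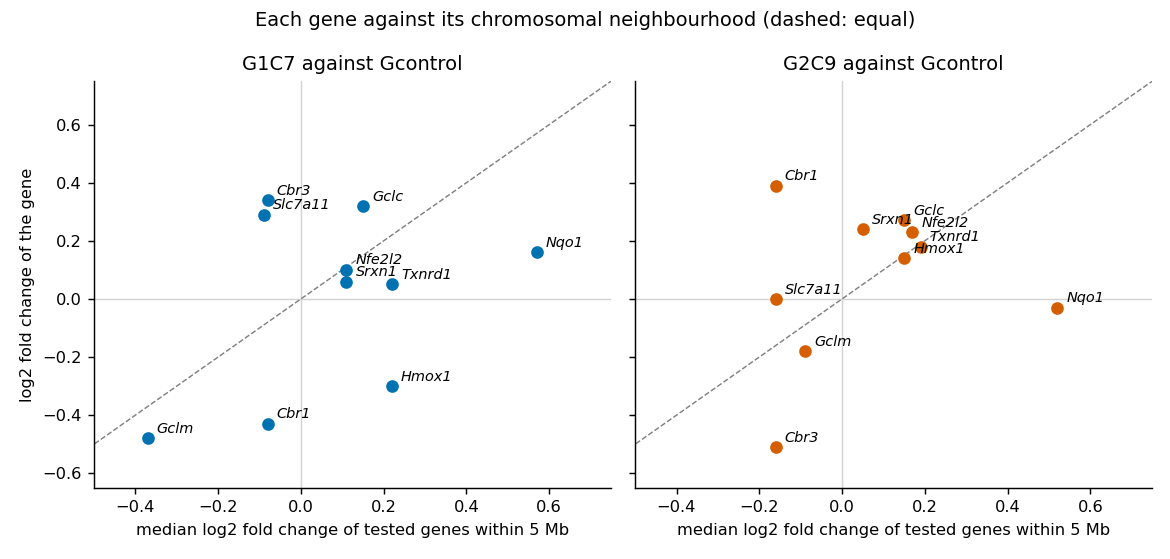
Log2 fold change of each gene (vertical axis) against the median of the other tested genes within 5 Mb (horizontal axis) for G1C7 (left) and G2C9 (right), with equality dashed. Gclm in G1C7 lies near the line at -0.48 against -0.37, Nqo1 lies far below it with surroundings at 0.57 and 0.52, and Cbr1 and Cbr3 lie on opposite sides of it.

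Slc7a11 encodes xCT, the light chain of the cystine importer that supplies cysteine for glutathione. It stood at 33.2, 34.9 and 33.4 CPM in Gcontrol, 34.9, 53.3 and 35.8 in G1C7 and 31.1, 24.4 and 46.3 in G2C9. The libraries that stand apart were the highest of all 9, the other G1C7 libraries lay at or just above the Gcontrol range, and the other G2C9 libraries below it. The log2 fold change was 0.29 ± 0.24 in G1C7 and 0.00 ± 0.24 in G2C9 (edgeR adjusted p = 0.455 and 0.996). It was 0.07 in G1C7 without both libraries that stand apart (adjusted p = 0.502), where Slc7a11 fell by 0.29 in G2C9 (edgeR adjusted p = 0.00581). The gene (ENSMUSG00000027737.10) is on chromosome 3 from 49892526 to 50443614 (minus strand).

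Txnrd1 and Srxn1 serve the thioredoxin and peroxiredoxin systems. Txnrd1, the cytosolic thioredoxin reductase, had the highest count of the members, 381, 395 and 382 CPM in Gcontrol, 410, 382 and 409 in G1C7 and 438, 459 and 419 in G2C9. The G2C9 libraries lay above all others, and the G1C7 libraries overlapped Gcontrol. The log2 fold change was 0.05 ± 0.08 in G1C7 and 0.18 ± 0.08 in G2C9 (edgeR adjusted p = 0.704 and 0.166). In G2C9 Txnrd1 passed by DESeq2 (adjusted p = 0.0447) and without both libraries that stand apart (0.22, edgeR adjusted p = 1.25e-04). Txnrd1 (ENSMUSG00000020250.10) is on chromosome 10 from 82833951 to 82897712 (plus strand), where the other 188 tested genes within 5 Mb had medians of 0.22 and 0.19.

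Srxn1 encodes sulfiredoxin, which repairs over-oxidised peroxiredoxins. It stood at 69.3, 70.8 and 70.1 CPM in Gcontrol, 78.2, 62.1 and 78.5 in G1C7 and 76.6, 79.5 and 92.0 in G2C9. All G2C9 libraries lay above Gcontrol, while G1C7 replicate 2 lay below it and the other G1C7 libraries above. The log2 fold change was 0.06 ± 0.11 in G1C7 and 0.24 ± 0.11 in G2C9 (edgeR adjusted p = 0.768 and 0.211). It passed in G2C9 without G1C7 replicate 2 (adjusted p = 0.049), and without both libraries that stand apart it was 0.16 in each derivative (adjusted p = 0.00455 and 0.00651). Srxn1 (ENSMUSG00000032802.8) is on chromosome 2 from 152105516 to 152111376 (plus strand).

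Cbr3 rose in G1C7 and fell in G2C9, and its neighbour Cbr1 was 1.76-fold lower in G1C7 than in G2C9. Both encode cytosolic carbonyl reductases, which use NADPH to reduce quinones and carbonyl compounds, including anthracycline drugs. They are neighbours on chromosome 16, plus strand, Cbr1 (ENSMUSG00000051483.9) from 93605853 to 93610505 and Cbr3 (ENSMUSG00000022947.8) from 93683215 to 93690990, with 72.7 kb and no other tested gene between them. Cbr3 stood at 16.4, 15.3 and 15.1 CPM in Gcontrol, 20.4, 18.3 and 20.7 in G1C7 and 10.7, 10.4 and 11.7 in G2C9. The 3 groups did not overlap. Cbr3 rose in G1C7 by 0.34 ± 0.10 (edgeR adjusted p = 0.0479) and fell in G2C9 by 0.51 ± 0.10 (adjusted p = 0.0123). The difference of 0.86 ± 0.10 between the derivatives, 1.81-fold, passed with an adjusted p of 0.00332.

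Cbr1 stood at 14.0, 14.2 and 13.4 CPM in Gcontrol, 9.11, 12.7 and 9.10 in G1C7 and 16.1, 16.4 and 21.9 in G2C9. These groups did not overlap either, and their order was the reverse, and the libraries that stand apart were the highest of their groups. Against Gcontrol it gave -0.43 ± 0.17 in G1C7 and 0.39 ± 0.17 in G2C9, which did not pass (edgeR adjusted p = 0.129 and 0.188). The difference between the derivatives did, at -0.82 ± 0.17, or 1.76-fold lower in G1C7 (adjusted p = 0.0417).

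These calls differ in how they hold. The difference of Cbr3 between the derivatives stayed called without each of the 9 libraries (highest edgeR adjusted p = 0.0267) and missed the threshold with only the 2 groups in the fit (adjusted p = 0.0536). The fall of Cbr3 in G2C9 ended without G2C9 replicate 1, G2C9 replicate 2, Gcontrol replicate 1 or Gcontrol replicate 2 (adjusted p = 0.0539, 0.0624, 0.0717 and 0.0527). Of the 9 fits with 1 library left out, its rise in G1C7 stayed called only without G1C7 replicate 2 or G2C9 replicate 3, and ended without each of the other 7 libraries (adjusted p up to 0.181, without Gcontrol replicate 3); it also ended with RLE factors, no filter or only the 2 groups in the fit (0.0549, 0.167 and 0.0622). The difference of Cbr1 stayed called among these fits only without G1C7 replicate 2, and ended without each of the other 8 (adjusted p up to 0.135, without G1C7 replicate 3), and with only the 2 groups in the fit (0.199). In every one of the 16 alternative settings each of these 4 values kept its sign. In the fit without both libraries that stand apart, Cbr1 gave -0.61 in G1C7 and 0.23 in G2C9 and Cbr3 gave 0.40 and -0.56, and each passed (edgeR adjusted p = 3.41e-06, 0.0141, 1.07e-04 and 7.02e-06).

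**Figure D4:**
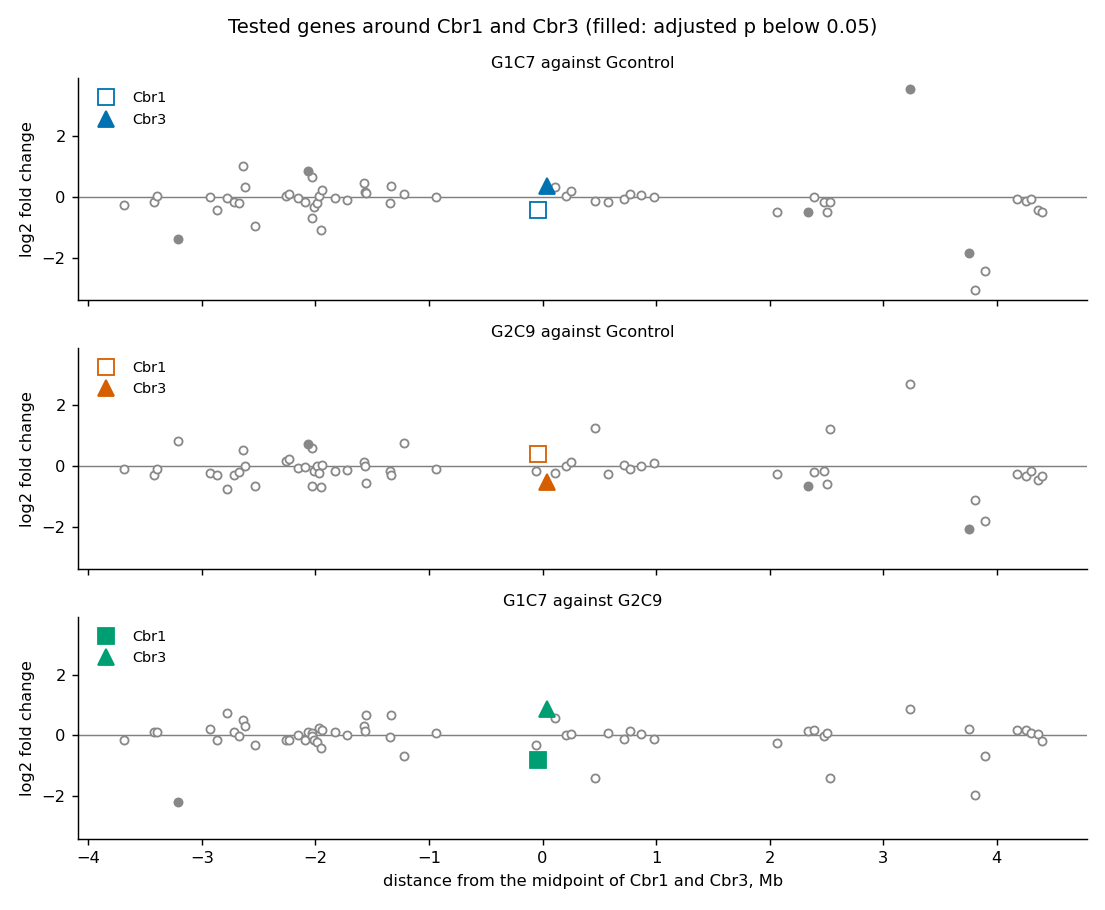
Log2 fold change of tested genes (vertical axis) by distance from the midpoint of Cbr1 and Cbr3 in Mb (horizontal axis), 1 panel per comparison, with a square for Cbr1, a triangle for Cbr3 and filled symbols for adjusted p below 0.05. The pair lies on opposite sides of 0 and swaps sides between G1C7 and G2C9. The other 59 tested genes within 5 Mb of Cbr1, Cbr3 among them, have medians of -0.08, -0.16 and 0.05.

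The genes around the pair had medians from -0.16 to 0.05, with single genes far from them. The other 59 tested genes within 5 Mb of Cbr1, Cbr3 among them, had a median log2 fold change of -0.08 in G1C7, -0.16 in G2C9 and 0.05 between the derivatives. Of these 59 genes, 6, 4 and 2 were called. Bace2 was called at -1.85 in G1C7 and -2.07 in G2C9, and Dscam at 3.555 in G1C7. Setd4, before Cbr1, gave -0.47, -0.16 and -0.31, and Dop1b, after Cbr3, gave 0.32, -0.24 and 0.56. Neither passed in any comparison (lowest edgeR adjusted p = 0.216). Per kilobase, Cbr3 over Cbr1 was 2.29 ± 0.0968 in Gcontrol (SD, n = 3), 4.05 ± 0.964 in G1C7 and 1.24 ± 0.141 in G2C9, the wide spread in G1C7 coming from 2.93 in replicate 2 beside 4.56 and 4.64.

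Gene copies and overlaps touch 2 members slightly. Exons of Gclm share 4.71% of their bases with Gm17494 and Gm6061, and 3.09% of the 100-base windows of its transcripts are found in other genes, Ppia and related pseudogenes among them. For Slc7a11 0.251% of windows are shared. The other 8 members, Cbr1 and Cbr3 among them, had 0 shared exon bases and 0 shared windows, so their reads are not split with a copy of that length.

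The levels of the genes differed more among themselves than between groups. As CPM per kilobase of exon in Gcontrol, Nqo1 was highest at 85.3 ± 2.13, followed by Hmox1 at 67.4 ± 1.04, Txnrd1 at 54.5 ± 1.1 and Nfe2l2 at 42.4 ± 1.11 (SD, n = 3). Srxn1, Gclm and Gclc stood together at 24.9 ± 0.266, 23.7 ± 0.983 and 21.7 ± 0.587. Cbr3, at 12.5 ± 0.559, Cbr1, at 5.44 ± 0.173, and Slc7a11, at 2.43 ± 0.0651, were lowest. Srxn1 and Gclm were 1 pair of neighbours within about their SDs. Read counts behind these values ran from 487 in a library for Cbr1 to 22512 for Txnrd1.

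**Figure D5:**
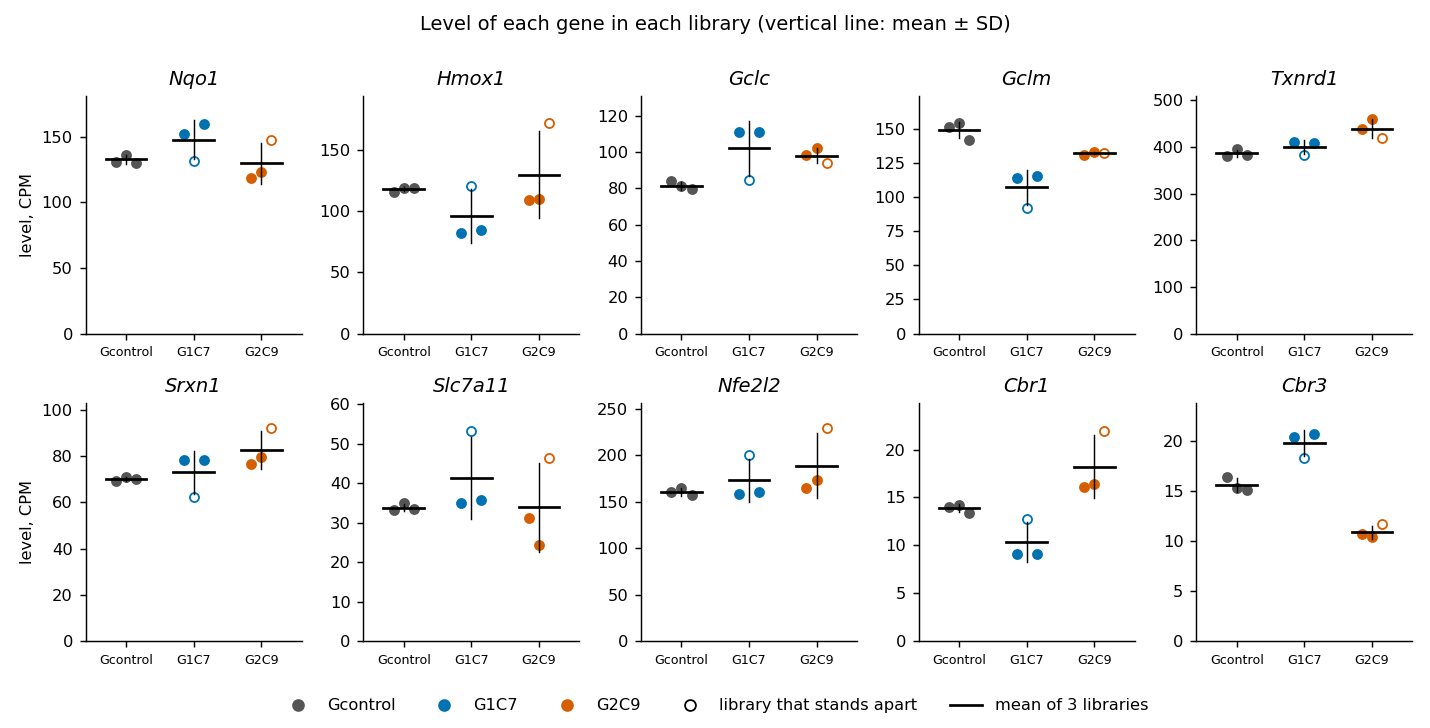
CPM (vertical axis, from 0) of each of the 10 genes in the 9 libraries, by group, with means as horizontal bars, SD as vertical lines and open points for the 2 libraries that stand apart. Gcontrol libraries lie close together, the open points are the highest of their group for Hmox1, Slc7a11, Nfe2l2 and Cbr1 in both derivatives, and Cbr3 separates all 3 groups.

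The libraries that stand apart set much of the spread. Hmox1, Slc7a11, Nfe2l2 and Cbr1 were the highest of their 3 libraries in both, 4 of 10 members where 34.3% of all genes showed this. Slc7a11 was 1.51 and 1.67 times the mean of the other 2 libraries in G1C7 replicate 2 and G2C9 replicate 3, Hmox1 1.46 and 1.57 times, Cbr1 1.40 and 1.35 times and Nfe2l2 1.25 and 1.36 times. Gclc and Txnrd1 were the lowest in both, 2 of 10 where 32.1% of genes were. Both shares are near the background. The list of 15 acute-phase and inflammation genes moved with these libraries: its summed level was 6177 CPM in G1C7 replicate 2 beside 1966 and 1951, and 13374 CPM in G2C9 replicate 3 beside 3623 and 3720, with 3799 to 4077 in Gcontrol. In each, 12 of the 15 genes were highest in the library that stands apart. The summed fibroblast and pericyte markers were also highest there, at 8786 and 8416 CPM, with 3603 to 4277 in the other derivative libraries and 5820 to 6102 in Gcontrol. The microglia and macrophage markers summed to 55.2 CPM in G1C7 replicate 2 beside 18.4 and 17.8, and to 99.7 in G2C9 replicate 3 beside 33.6 and 33.5, with 37.8 to 39.6 in Gcontrol. Most of these 2 high sums was Tmem119 alone, at 47.2 and 92.1 CPM. Each other marker of that list was at 4.5 CPM or less in every library. The neuron markers summed to 50.1 beside 36.2 and 37.3, and to 36.7 beside 27.4 and 28.1, with 39.9 to 41.4 in Gcontrol. The part of these lists in the members' levels was not tested.

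The members did not follow 1 profile over the 9 libraries. The root mean square difference of centred log2 CPM was smallest between Txnrd1 and Srxn1 (0.11) and largest between Cbr1 and Cbr3 (0.71). Among 11202 protein-coding genes, the nearest profiles to Cbr3 were those of Zfp7, Bex3 and Zfp560 (0.10, 0.11 and 0.12). Those nearest to Cbr1 were Abcd3 and Rhoc, both on chromosome 3, and Pcx on chromosome 19 (0.08, 0.11 and 0.11). For Nfe2l2 they were Dnajb6, Prkcsh and Surf4 (0.03, 0.04 and 0.04). These distances are descriptions over libraries that share their depth and their group.

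Around the 10 genes, 10 lists of the wider redox network held 170 genes, 156 of them tested. In G1C7 24 of the 156 were called (9 higher, 15 lower), or 15.4%, and in G2C9 22 (9 higher, 13 lower), or 14.1%, beside 17.5% and 13.5% of all genes. Between the derivatives 3 were called, all lower in G1C7, or 1.92% beside 3.36%. Single lists hold few genes, so the counts given for them here and below are no test of a list. The list medians in G1C7 ran from -0.45 for the export transporters to 0.28 for the amino acid response, and in G2C9 from -0.13 to 0.07. Of the 16 regulators and partners of NRF2, edgeR called 0 in G1C7 and 1 in G2C9, with 3 and 5 at an unadjusted p under 0.05. DESeq2 called 3 in each and limma-voom 0 and 1. The 1 was Maff, a small MAF partner of NRF2, which rose in G2C9 by 0.46 ± 0.11 (edgeR adjusted p = 0.0237) and lost the call without any 1 of the Gcontrol libraries (adjusted p up to 0.0961).

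NADPH is the reductant of many of these enzymes, and 2 genes of the pentose phosphate pathway, a source of it, changed in both derivatives. Pgd, which makes NADPH as 6-phosphogluconate dehydrogenase, fell from 340 ± 6.42 CPM (SD, n = 3) to 174 ± 17.0 in G1C7 and 169 ± 7.21 in G2C9. It was 1.96-fold and 2-fold lower (SE 0.09 on the log2 scale in both, edgeR adjusted p = 4.06e-04 and 4.14e-04), and no derivative library overlapped Gcontrol. Tkt, the transketolase of the same pathway, rose from 175 ± 5.09 CPM to 346 ± 66.6 and 265 ± 19.3, by 0.98 ± 0.13 and 0.59 ± 0.13 (adjusted p = 0.00201 and 0.0202). The call of Tkt in G2C9 ended without G2C9 replicate 1 or any 1 of the Gcontrol libraries (adjusted p up to 0.0861). Idh1, the cytosolic isocitrate dehydrogenase, rose in G1C7 by 0.73 ± 0.19 (adjusted p = 0.0293) and lost the call without any 1 of the Gcontrol libraries (adjusted p up to 0.111). Of the 14 genes of NADPH supply, 3 were called in G1C7 and 2 in G2C9, beside 17.5% and 13.5% of all genes.

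Ptgr2, a reductase of prostaglandins, had 1309 reads over the 3 Gcontrol libraries and 0 reads in all 6 derivative libraries. Against a floor of 6 reads over a group, or 3 read pairs, it was at least 216-fold lower in G1C7 and at least 199-fold lower in G2C9, a bound that covers counting error only. It belongs to the list of carbonyl, aldehyde and quinone enzymes, of which 4 of 27 were called in each derivative (2 higher and 2 lower in G1C7, 3 and 1 in G2C9). Over all genes the shares called were 17.5% and 13.5%. Ephx2, soluble epoxide hydrolase, fell in G1C7 from 3.31 ± 0.174 to 0.368 ± 0.0956 CPM (log2 fold change -3.16 ± 0.41, edgeR adjusted p = 0.00174). Its log2 difference of G1C7 against G2C9 was -2.12 (edgeR adjusted p = 0.0264), a call that held without G1C7 replicate 2 or G2C9 replicate 3 and ended without each of the other 7 libraries (adjusted p up to 0.107).

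Among the glutathione genes, Gpx4, the peroxidase that reduces lipid peroxides, rose in both derivatives, from 203 ± 6.25 CPM to 312 ± 34.0 and 306 ± 21.6. The log2 fold changes were 0.62 ± 0.10 and 0.59 ± 0.10 (edgeR adjusted p = 0.00431 and 0.00621). Gss, which joins glycine to the product of glutamate-cysteine ligase, fell by 0.60 ± 0.12 in G1C7 and by 0.46 ± 0.12 in G2C9 (adjusted p = 0.0121 and 0.0419). Without Gcontrol replicate 1 Gss was no longer called in G1C7 (adjusted p = 0.0684). Among the fits with 1 library left out, its call in G2C9 held only without G1C7 replicate 2 (adjusted p up to 0.174 without the others). Of the 15 tested genes of this list 3 were called in each derivative, beside 17.5% and 13.5% of all genes. Gpx4 lies on chromosome 10, where the other 205 tested genes within 5 Mb had medians of 0.23 and 0.20.

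In the thioredoxin list, 5 of 18 genes were called in each derivative, 1 higher and 4 lower in G1C7 and 2 and 3 in G2C9. Over all genes 17.5% were called in G1C7 (8.77% higher, 8.73% lower) and 13.5% in G2C9 (6.25% higher, 7.22% lower). The counts of this and the next 2 lists are to be read against these shares. Txnrd2, the mitochondrial thioredoxin reductase, fell by 0.68 ± 0.13 and 0.61 ± 0.13 (edgeR adjusted p = 0.00987 and 0.0181). Without Gcontrol replicate 1 Txnrd2 was no longer called in G1C7 (adjusted p = 0.0578). In G2C9 the call ended without G2C9 replicate 1 or 2 or any 1 of the Gcontrol libraries (adjusted p up to 0.0957). In the list of superoxide and peroxide removal, 2 of 11 were called in each derivative, 1 in each direction. Msrb3 of that list, a methionine sulfoxide reductase, rose by 0.54 ± 0.07 and 0.59 ± 0.07 (adjusted p = 0.00181 and 0.00144). The lower gene was Msrb2, which the naming rule left out for its mean below 1 CPM. It had 293 reads over the Gcontrol libraries, 0 in G1C7 and 71 in G2C9 (edgeR adjusted p = 7.29e-04 and 0.0247). Against the floor of 6 reads it was at least 48.3-fold lower in G1C7. Abcc4, a transporter that exports drugs and conjugates, fell in G1C7 by 0.46 ± 0.08 (adjusted p = 0.00552), 1 of 3 called among 7 tested export transporters, and these 3 were lower.

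The remaining lists cover glutathione transferases, heme and iron, and the amino acid response. For them too the shares over all genes are 17.5% in G1C7 and 13.5% in G2C9, with 8.73% and 7.22% called lower. Of 18 glutathione transferases 1 was called in G1C7 and 3 in G2C9, each of them lower. Among them Gsta4, which conjugates products of lipid peroxidation, fell in G2C9 by 1.29 ± 0.31 (edgeR adjusted p = 0.0255). That call ended without G2C9 replicate 1 or 2 or any 1 of the Gcontrol libraries (adjusted p up to 0.0952). Of 14 genes of heme and iron handling 1 was called in each derivative, both lower. Of 16 genes of the amino acid response 2 were called in G1C7 (1 higher, 1 lower) and 0 in G2C9 by edgeR, with 1 at an unadjusted p under 0.05, 1 by DESeq2 and 0 by limma-voom. The higher one was Ddit3, a stress transcription factor, at 1.57 ± 0.45 (edgeR adjusted p = 0.0425). Its G1C7 libraries ran from 24.4 to 86 CPM, beside 15.2 to 15.5 in Gcontrol, and without G1C7 replicate 2 the value was 0.74 (adjusted p = 0.00944). It lost its call without G2C9 replicate 1 or 2 or any 1 of the Gcontrol libraries (adjusted p up to 0.135).

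Over these lists the naming rule gave 19 calls in G1C7, 17 in G2C9 and 2 between the derivatives. Without each of the 9 libraries in turn, 7 of the 19, 4 of the 17 and 0 of the 2 stayed called by edgeR. These were Gpx4, Ptgr2, Pgd and Msrb3 in both derivatives and Ephx2, Tkt and Abcc4 in G1C7. Without both libraries that stand apart, 19, 17 and 2 were called, in a fit that called 54.3%, 53% and 27.3% of all genes. The genes were named for calls in the same data, so these counts are no separate check of them.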

How the data were processed

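Counts of reads per gene were deposited for 9 libraries of poly(A) RNA. The authors made them with featureCounts 1.6.0 on STAR alignments to GRCm38 with GENCODE genes, per the file headers. STAR 2.6.1c and FastQC 0.11.8 are named in the submitters' processing notes. In 9 of 9 headers no option for pairs, strand, multi-mapping or overlapping genes was set. By that tool's defaults each mate counts on its own, strand plays no part, and multi-mapping or multi-gene reads are left out. Symbols came from a reference annotation that held 55141 of 55401 gene IDs.

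Genes were kept with filterByExpr (15659) and scaled with TMM factors (0.978 to 1.03). The quasi-likelihood test of edgeR 4.0.16 (R 4.3.3, robust) was fitted on all 9 libraries together, leaving 6 residual degrees of freedom, at a common BCV (biological coefficient of variation) of 0.248. The 3 comparisons were each derivative against Gcontrol and the derivatives against each other. Calls need a p under 0.05 after Benjamini-Hochberg adjustment over every tested gene. SEs were obtained by dividing the size of the log2 fold change by the root of F. The script was also run on simulated counts drawn without libraries that stand apart, so that run does not check the calls in these data. Depth was 50110129 to 56035382 reads per library, the 95% intervals come from the fit and hold the spread between libraries, and the floor covers counting error only.

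Alternatives were RLE factors, DESeq2 1.42.0, limma-voom (limma 3.58.1), no filter, the replicate number as a block, only the 2 groups compared, and each library left out. Leaving out both libraries that stand apart was added after seeing the data. From each list the rule named up to 2 highest and 2 lowest called genes per comparison with a mean of 1 CPM or more. Around each member it took the nearest tested protein-coding genes and the window of 5 Mb on either side, and for likeness of profile 3 genes per member. Which of the named genes the text describes was chosen after their values were seen. The members and lists were chosen with earlier results of these data known.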

Additional observations from a re-analysis of the deposited data

Results flagged for a closer look

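The changes of 2 genes differed between the derivatives by the test of the difference itself. Cbr3 was higher in G1C7 than in G2C9, with a log2 difference of 0.86 ± 0.10 (edgeR adjusted p = 0.00332), and its 3 libraries of each derivative lay on opposite sides of the Gcontrol libraries. Cbr1 differed the other way, at -0.82 ± 0.17 (edgeR adjusted p = 0.0417), again with the derivatives on opposite sides of Gcontrol in 6 of 6 libraries. Of the 9 fits with 1 library left out, the call of Cbr1 held in 1 and that of Cbr3 in 9. With only the 2 groups in the fit neither passed (edgeR adjusted p = 0.199 for Cbr1 and 0.0536 for Cbr3).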

How the results depend on the processing

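In G1C7 2 members were called, and 1 with RLE factors, with no filter, or with only the 2 groups in the fit, 7 without both libraries that stand apart, and 0 to 4 with each library left out (0 without Gcontrol replicate 1 or 2, with 3 and 2 at an unadjusted p under 0.05). In G2C9 1 was called, and 2 by DESeq2 or with only the 2 groups in the fit, 9 without both libraries that stand apart, and 0 to 3 with each library left out (0 without replicate 1 or 2 of G2C9 or of Gcontrol, with 1 or 2 at an unadjusted p under 0.05). Between the derivatives 2 were called, and 0 with only the 2 groups in the fit (edgeR, with 3 at an unadjusted p under 0.05; DESeq2 and limma-voom each called 2 in the full design), 8 without both libraries that stand apart, and 1 to 2 with each library left out. Shares of all genes called were 17.5%, 13.5% and 3.36% with all libraries and 54.3%, 53% and 27.3% without both libraries that stand apart. For the other settings no such share is given, so their counts are not to be read as a result about the members. Without both libraries that stand apart Hmox1 turned to -0.11 and Slc7a11 to -0.29 in G2C9, and fewer samples were in the fit. Of 480 values of single members under the alternatives, 409 kept their direction and side of the threshold, 28 lost a call, 23 gained one and 20 changed sign. Of these 20, 0 were called by edgeR with all libraries and 2 in the alternative, Hmox1 and Slc7a11 as above. Slc7a11 in G2C9 was at -0.05 by limma-voom, -0.01 with the replicate block and -0.00 with RLE factors, DESeq2 or no filter. Nfe2l2 in G1C7 (-0.01) and Srxn1 between the derivatives (0.01) changed sign without both libraries that stand apart. With each library left out, the values in G1C7 ran from -0.00 to 0.17 for Srxn1 and from -0.01 to 0.16 for Nfe2l2. In G2C9 they ran from -0.13 to 0.03 for Nqo1, -0.10 to 0.26 for Hmox1 and -0.28 to 0.20 for Slc7a11. Between the derivatives they ran from -0.01 to 0.18 for Gclc and -0.24 to 0.03 for Nfe2l2. Of 608 values for genes of the other lists, 437 kept their call and 171 lost it, and none of these turned.

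With the replicate number as a block, 1 member was called in G1C7, 1 in G2C9 and 1 between the derivatives. The calls lost were those of Cbr3 in G1C7 and of Cbr1 between the derivatives (edgeR adjusted p = 0.105 and 0.128). Correlations of deviations from the group means between libraries with the same number ran from -0.56 to 0.41. Deviations within a group offset each other, and the libraries that stand apart weigh heavily in them. These values therefore cannot decide whether the numbers mark a shared culture. Not every library correlated best with its own number: G1C7 replicate 2 gave 0.68 with G2C9 replicate 3.

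With 3 libraries a group, the 95% intervals of Nqo1, Srxn1 and Nfe2l2 against Gcontrol included 0, which does not show that they were unchanged.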
